A study of Caenorhabditis elegans with 2 samples.

Results

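The fatty acid and retinol binding proteins (FAR proteins) are small, helix-rich lipid carriers known from nematodes. They bind fatty acids and retinol, the alcohol form of vitamin A, and parasitic nematodes release members of the family into their hosts. Caenorhabditis elegans has 8 genes that carry the family name, far-1 to far-8. All 8 were found by name (F02A9.2, F02A9.3, F15B9.1, F15B9.2, F15B9.3, W02A2.2, K01A2.2 and K02F3.3 in order from far-1) among the 21163 gene rows of the deposited table, and each is annotated there with the Pfam domain of the family. The deposited annotation gives lipid binding as the function of 7 of them. It places the protein of the remaining gene, far-7, in the cytoplasm and gives oleic acid binding as its function.

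RNA was sequenced from whole N2 worms, the wild-type strain, at day 5, in a control group and in a group given 100 µM ellagic acid (EA), a plant polyphenol. Per the labels' protocols, EA was dissolved in dimethyl sulfoxide and mixed into the bacterial food, Escherichia coli OP50, and the controls were vehicle controls. The labels do not say from which event the days were counted. Each group held 1 library, with 41840364 counts in the control and 39421614 counts with EA. No difference given here therefore has a replicate check, no p-value was computed, and every 95% interval covers counting error only. In whole animals, fewer cells of a type and less RNA per cell cannot be told apart.

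No far gene was higher with EA by 2-fold, 2 were at least 2-fold lower, and the most abundant member, far-2, had a ratio near 1 under the main scaling. The lower genes were far-7 at 4.10-fold and far-4 at 2.17-fold, each with an interval of the ratio that excluded 1. The median log2 ratio of EA to control over all 8 genes was -0.34, against 0.01 over the 10610 genes with a mean of 5 or more CPM, the counts scaled to library size. These sets differ, since far-4 lay below that minimum. For the 7 far genes that reached it the median was -0.24. For the 1761 other genes that reached it with transcripts of 550 to 950 nucleotides the median was -0.11. Of the 10610 genes 1.52% were at least 2-fold lower and 0.481% at least 2-fold higher. The lower share was 1.06% at 10 CPM or more, and 1.98% among the 1768 genes at 5 CPM or more with transcripts of 550 to 950 nucleotides, which spans the far genes. With a mean of 1 CPM or more, which takes in far-4, the lower share was 3.52% of 14221 genes and the higher share 2.03%. Among genes from 1 to under 5 CPM, where far-4 lies, 9.42% were at least 2-fold lower. The log2 ratio lay below 0 in 7 of the 8 far genes, all with intervals below 0, against ratios below 0 in 48.7% of genes at 5 CPM or more and in 67% of those with transcripts of 550 to 950 nucleotides. The far-6 interval ended at -0.00055, so close to 0 that its place below 0 depends on the scaling. Intervals wholly below 0 were common at this depth. They were found for 33.1% of genes at 5 CPM or more, for 32.2% at 1 CPM or more, and for 49.3% of those with transcripts of 550 to 950 nucleotides.

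The far transcripts differed far more in level among themselves than between the libraries. In FPKM, the authors' value per transcript length and depth, far-2 stood at 2451 in the control and 2570 with EA, which ranked 56 and 50 among all gene rows. Next came far-1, at 1483 FPKM in the control and 1388 FPKM with EA. A middle group held far-3 at 243 and 186 FPKM, far-8 at 142 and 126 FPKM, and far-6 at 100.4 and 100.5 FPKM. The low group held far-7 at 27.6 and 7.03 FPKM, far-5 at 16.6 and 11.8 FPKM, and far-4 at 6.52 and 3.15 FPKM. The order was the same in both libraries except for far-7 and far-5. The level of far-7 was 1.66 times that of far-5 in the control and 0.598 times that of far-5 with EA. With 1 library per group, no spread is available against which neighbours in this order could be separated. Between the ends of the range, far-2 exceeded far-4 by 376-fold in the control and by 815-fold with EA.

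**Figure D1:**
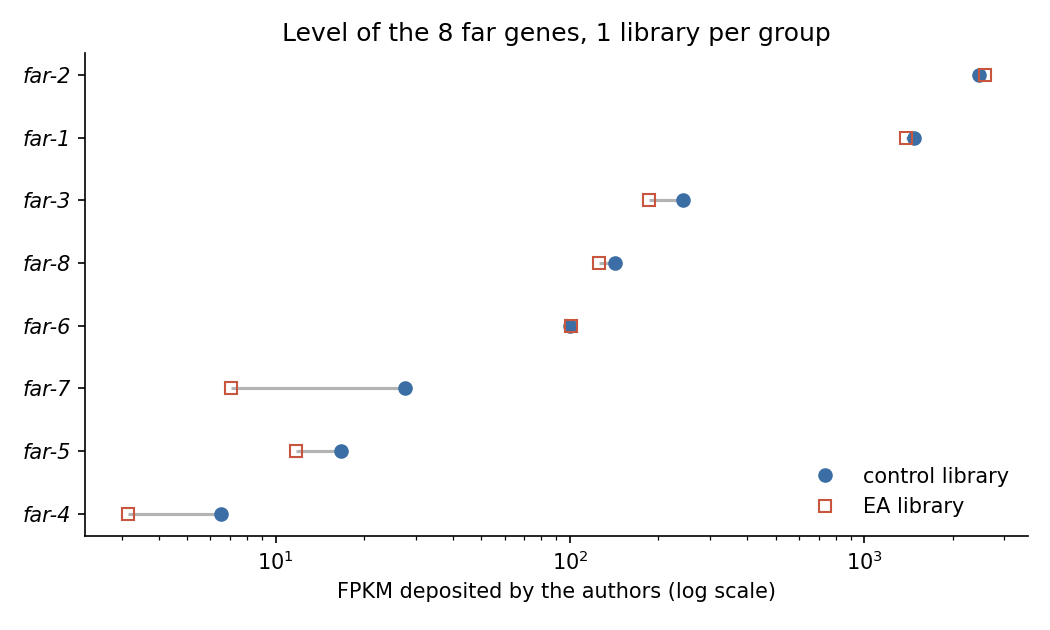
FPKM of the 8 far genes on a log axis in the control library (filled circles) and the EA library (open squares), with a grey line joining both values of a gene. The values run from 3.15 FPKM for far-4 with EA to 2570 FPKM for far-2 with EA, and the longest grey lines are those of far-7 and far-4.

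Most of the family's counts came from far-1 and far-2, and the family sum differed less between the libraries than most single members did. The 8 genes took 127052 counts in the control library and 114775 counts with EA. These made up 0.304% of the control counts (exact binomial 95% interval 0.302% to 0.305%) and 0.291% of the EA counts (0.289% to 0.293%). On the CPM scale the family sum was 3074 in the control and 2876 with EA, 6.43% lower (5.68% to 7.17%). The genes far-1 and far-2 held 86.2% of the family's counts in the control and 88.3% with EA. The 6 other genes summed to 425 CPM without EA and to 337 CPM with it, 20.7% lower (18.9% to 22.5%).

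The gene pair far-1 and far-2 encodes proteins of equal annotated length, 182 residues, and lies on chromosome III (build WBcel235) in opposite orientation. far-1 spans 9080371 to 9081179 on the minus strand in 4 exons, and far-2 spans 9081828 to 9082511 on the plus strand in 2 exons. Their starts face each other across 648 bases. far-2 had 66544 counts in the control library and 64301 counts with EA, or 1609.9 and 1611 CPM. Its log2 ratio was 0.00 (0.0013), with an interval from -0.01 to 0.02, so it was alike in both libraries under this scaling. The far-2 log2 ratio was 0.036 with total counts and 0.068 with FPKM, both above that interval. far-1 had 42960 and 37039 counts, or 1039 and 928 CPM, so it was higher in the control. Its log2 ratio was -0.16 (-0.18 to -0.14), 10.7% lower with EA. The log2 ratio of far-1 minus that of far-2 was -0.16 (-0.19 to -0.14), so the neighbours with facing starts did not share a ratio within counting error. The next gene beyond far-2, mrpl-44, which encodes a mitochondrial ribosomal protein, was higher with EA, at 58.2 and 66.7 CPM (log2 ratio 0.19, 0.11 to 0.28). The next gene beyond far-1, F02A9.1, had 228 counts without EA and 149 with it (log2 ratio -0.56, -0.87 to -0.26).

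The genes far-5, far-3 and far-4 lie in this order on chromosome V, and all were lower with EA. far-5 spans 12995569 to 12996836 on the plus strand, far-3 spans 12996787 to 12997522 on the minus strand, and far-4 spans 12998427 to 12999659 on the minus strand. Each has 2 exons in its longest coding transcript. Their summed level was 192 CPM without EA and 139 CPM with it, 27.8% lower (25.3% to 30.3%), and far-3 supplied nearly all of these counts. far-3, which encodes a protein of 189 residues, had 7244 counts in the control and 5119 with EA, or 175 and 128 CPM. Its log2 ratio was -0.45 (-0.50 to -0.40), a level 26.8% lower with EA.

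far-5, for a protein of 176 residues, had 483 counts in the control and 316 with EA, or 11.7 and 7.92 CPM. Its log2 ratio was -0.56 (-0.77 to -0.35). The ends of far-5 and far-3 overlap by 50 bases on opposite strands. Strand use in the counting was not given in the sources used here. Reads from that stretch may have been counted for either gene, and far-5, with the lower level, is the more exposed. The log2 ratio of far-3 minus that of far-5 was 0.11, with an interval from -0.10 to 0.32 that included 0. It was the only such pair among the 28 pairs of far genes, but for far-2 minus far-6 the interval began at 0.00031. These intervals cover counting error only, and how many pairs of other genes exclude 0 was not counted.

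far-4, for a protein of 205 residues, is the least expressed member, with 207 counts in the control and 92 with EA, or 5.01 and 2.31 CPM. It was 2.17-fold lower (1.69 to 2.81), a log2 ratio of -1.11. That is 0.66 below the ratio of far-3 on the log2 scale (0.31 to 1.02), and both lie on the same strand, 904 bases apart. Its mean of 3.66 CPM lay below the 5 CPM minimum used for counts over all genes. The gene past far-4, inft-2, an inverted formin gene, was higher with EA, at 44.1 and 60.4 CPM and a log2 ratio of 0.46. On the other side of the group, the Delta/Serrate-type ligand gene dsl-7 had 69 counts in the control and 35 with EA.

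**Figure D2:**
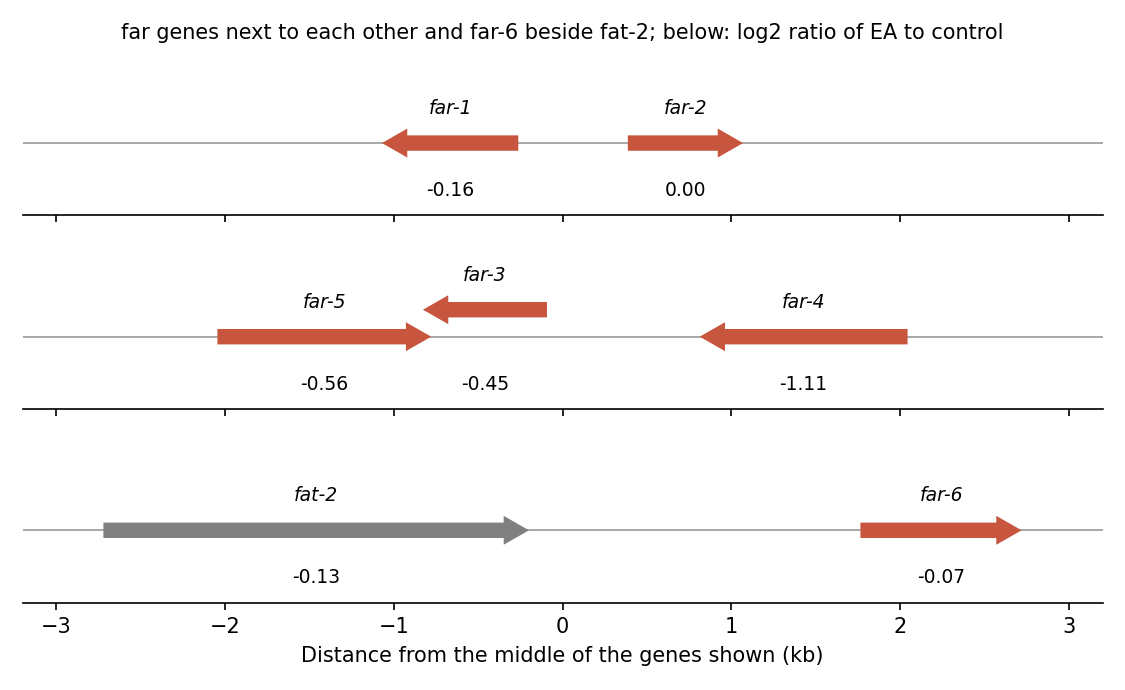
Positions of far-1 and far-2 (top), of far-5, far-3 and far-4 (middle) and of far-6 with the desaturase gene fat-2 (bottom), as distances in kb from the middle of the genes shown. Arrows point in the direction of transcription, far-3 is raised to show its 50-base overlap with far-5, and the number under each gene is its log2 ratio of EA to control, from 0.00 for far-2 to -1.11 for far-4.

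The middle-level genes far-6 and far-8 differed by less than 20% between the libraries. far-6 (chromosome IV, 13328359 to 13329314, plus strand, 2 exons, 184 residues) had 4043 counts in the control and 3731 with EA, or 97.8 and 93.5 CPM. Its log2 ratio was -0.07 (-0.13 to -0.00), and it turned to 0.0020 with the deposited FPKM values. far-6 has the longest transcript of the family, 908 nucleotides, because of a 3′ untranslated region of 351 bases.

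The gene before far-6, 1963 bases away on the same strand, is fat-2, which encodes a fatty acid desaturase acting on oleic acid. The omega-3 desaturase gene fat-1 lies 9547 bases before far-6. Nearer than both is pqn-74, 192 bases past the end of far-6 on the other strand. It had 8 counts in the control and 18 with EA (log2 ratio 1.17, -0.05 to 2.63). The level of fat-2 was 911 CPM without EA and 832 CPM with it (log2 ratio -0.13), and that of fat-1 was 326 and 311 CPM (log2 ratio -0.07). None of fat-1, fat-2 and far-6 differed by 2-fold. far-8 (chromosome III, 842930 to 843802, plus strand, 3 exons) encodes the longest protein of the family, 232 residues. It had 4920 counts in the control and 4024 with EA, or 119.03 and 101 CPM, a log2 ratio of -0.24 (-0.30 to -0.18). This is a level 15.3% lower with EA. Of its neighbours, K02F3.9 lies 1563 bases before it on the other strand and had a log2 ratio of -0.28 (-0.40 to -0.16), close to that of far-8. K02F3.2, 2038 bases past its end, had 57.2 and 57.8 CPM, a log2 ratio of 0.01.

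far-7 had the largest difference of the family. It spans 319789 to 321110 on the plus strand of chromosome II, and its longest coding transcript has 4 exons and encodes the shortest protein of the family, 138 residues. Its protein is known from its crystal structure, and it is the member that the deposited annotation places inside the cell. far-7 had 651 counts in the control library and 153 counts with EA, or 15.7 and 3.83 CPM. The level with EA was 75.6% lower (70.9% to 79.7%), 4.10-fold (3.44 to 4.93), a log2 ratio of -2.03. Of the 10610 genes at 5 CPM or more, 7 had a lower ratio. far-7 met that minimum of the mean through its control level, so this rank is not independent of its difference. Of 645 genes matched on length and with CPM within 4-fold, without the minimum, 3 had a ratio as low. On the log2 scale far-7 lay 0.92 below far-4 (0.48 to 1.36), the member with the next lowest ratio. Its neighbours did not reach 2-fold, or had too few counts for a ratio. K01A2.10, 331 bases past the end of far-7 on the other strand, had 713 and 498 counts, a log2 ratio of -0.47, and K01A2.9 on the other side had 3 and 0 counts.

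In the authors' deposited table, which was made with edgeR, far-7 and far-4 were the members called down, under thresholds of 0.01 on the false discovery rate (FDR) and of 2-fold. The authors' deposited table gave far-7 a log2 ratio of -2.04 with an FDR of 5.87e-14, and far-4 one of -1.12 with an FDR of 0.00103. The other 6 far genes had FDR values from 0.0914 for far-5 to 1 for far-2 in the authors' deposited table. That table called 517 of 14692 genes down, or 3.52%. How the authors set the spread with 1 library per group was not given in the sources used here, and the FDR values were not used further.

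The far genes have short transcripts, of 551 to 908 nucleotides, and in these libraries short transcripts had lower ratios. Genes of 400 to 599 nucleotides at 5 CPM or more had a median log2 ratio of -0.30, those of 600 to 799 nucleotides -0.13, and those of 1500 to 2999 nucleotides 0.06. What underlies this relation was not tested. Each far gene was therefore set beside all other genes at 5 CPM or more whose transcript length was within 20% of its own. For far-7 there were 780 such genes, with a median log2 ratio of -0.25 and with 95% of them between -1.09 and 0.29. Of these, 3.85% were at least 2-fold lower, and 0 had a ratio as low as far-7. For far-4, the median of 1242 such genes was -0.12, and 17 of them (1.37%) had a ratio as low. These genes all lay above the level of far-4. Among genes matched on length and with CPM within 4-fold of the far gene, without the 5 CPM minimum, ratios spread more widely. Of 645 such genes for far-7, 3 (0.465%) had a ratio as low and 7.60% were at least 2-fold lower. Of 878 for far-4, 44 (5.01%) had a ratio as low and 6.95% were at least 2-fold lower. The central 95% then reached from -1.35 to 1.29 for far-4, which took in its ratio of -1.11, and from -1.27 to 0.59 for far-7, which did not take in -2.03.

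The remaining members lay well inside the range of genes of their length. far-5 lay 0.41 and far-3 lay 0.31 below the like-length median on the log2 scale, with 14.2% and 19.3% of like-length genes as low as they were. far-8 lay 0.15 below, with 28.3% of genes as low. far-1 and far-6 lay within 0.02 of the median of their like-length genes, which was -0.15 for far-1 and -0.05 for far-6. far-2 lay 0.18 above its like-length median of -0.18, and 74.5% of the 969 genes of like length had a ratio at or below its own. Among the 53 of these with CPM within 4-fold the share was 84.9%. Against genes of equal length, then, far-2 stood above the median and far-1 at it. The counting intervals of far-7, far-4, far-5, far-3 and far-8 lay wholly below it. How many other genes have intervals below their own like-length median was not counted. Such narrow intervals were common, since 49.3% of genes with transcripts of 550 to 950 nucleotides had intervals wholly below 0.

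**Figure D3:**
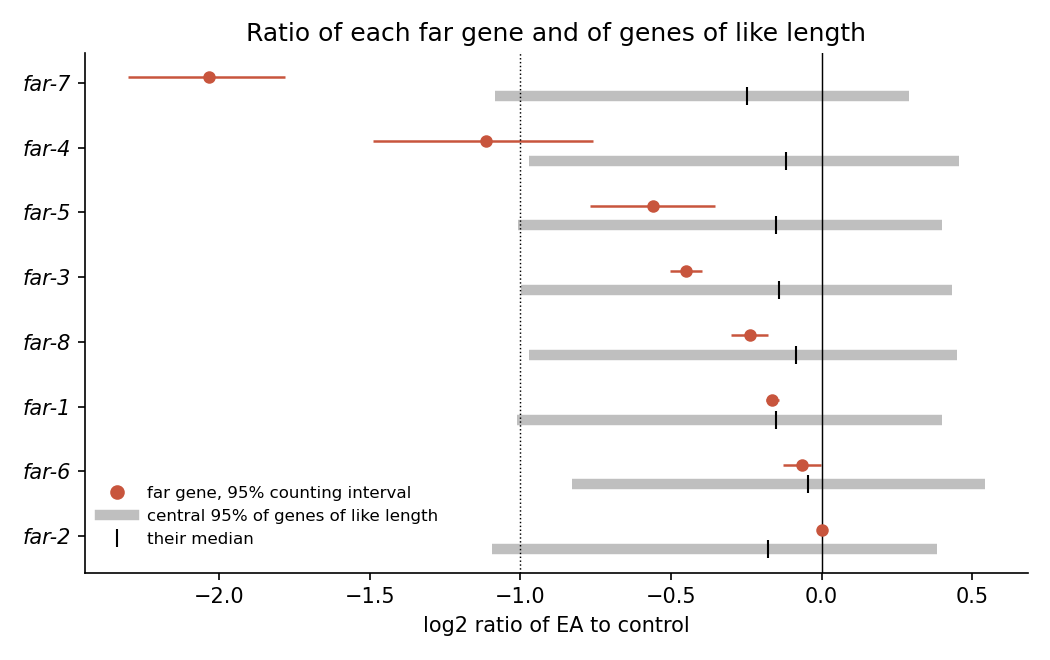
Log2 ratio of EA to control of each far gene (red points, with 95% counting intervals) above a grey bar for the central 95% of other genes at 5 CPM or more within 20% of its transcript length, with their median as a black tick. The solid line marks 0 and the dotted line a 2-fold lower level, and the points of far-7 and far-4 lie outside their grey bars, which for far-4 hold only genes above its own level.

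With a smooth trend of the ratio on transcript length subtracted, far-7 stood at -1.77 and remained past 2-fold. far-4 then stood at -0.98, just under 2-fold, so 1 far gene rather than 2 was lower by that measure. The family median became -0.22 on the log2 scale, against 0.00 for all genes at 5 CPM or more. The ratio of far-1 turned from -0.16 to 0.0067 and that of far-2 became 0.20, so that 6 of the 8 far genes lay below 0.

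**Figure D4:**
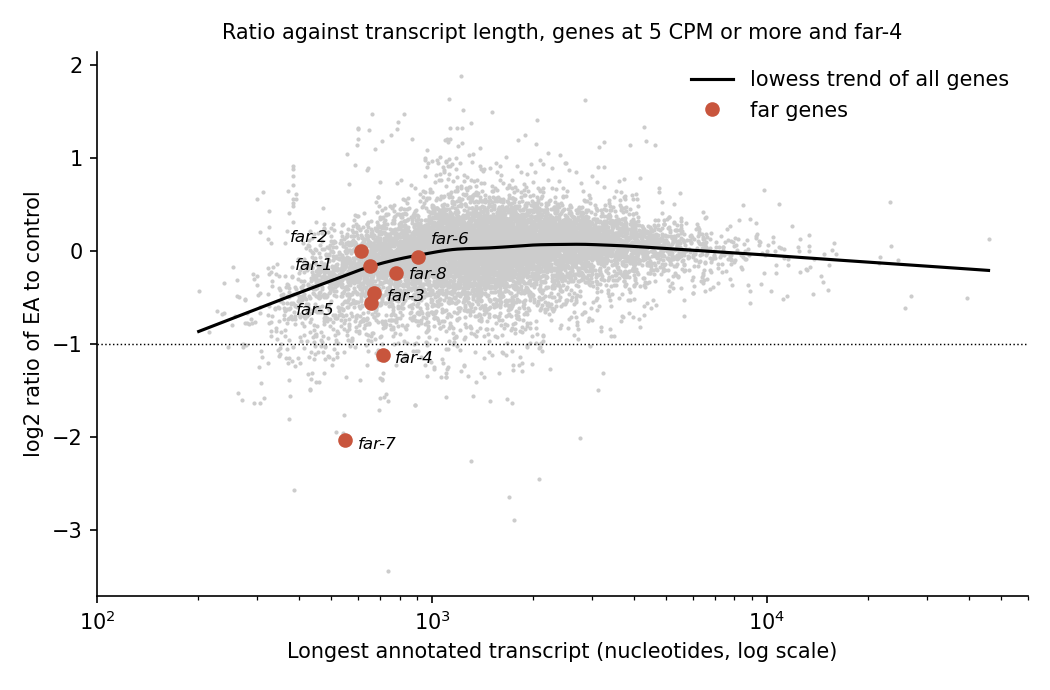
Log2 ratio of EA to control against the longest annotated transcript in nucleotides (log scale). Grey dots are genes at 5 CPM or more, red points are the 8 far genes, the black curve is the lowess trend over the grey genes and the dotted line marks a 2-fold lower level. The trend falls towards short transcripts, far-1 and far-6 lie on it, far-2 lies above it, and far-7 lies farther below it than any other far gene.

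The 9 intracellular lipid-binding protein genes, lbp-1 to lbp-9, are the other family of small lipid carriers, also with short transcripts. Their median length at 5 CPM or more was 558.5 nucleotides, near the short end of the far genes, which run from 551 to 908. Among the 8 assessed at 5 CPM or more, 0 were past 2-fold and all had log2 ratios below 0, 7 of them with intervals below 0. Over all genes at that minimum 1.52% were at least 2-fold lower, 48.7% had ratios below 0 and 33.1% had intervals below 0. With transcripts of 550 to 950 nucleotides, 67% had ratios below 0 and 49.3% had intervals below 0. Genes of 400 to 599 nucleotides had a median log2 ratio of -0.30. The lbp median was -0.33, against -0.24 for the 7 far genes at the same minimum. With the length trend removed these medians were -0.11 for the lbp genes and -0.14 for the far genes. The lowest lbp ratio was that of lbp-7, at 8.08 and 4.06 CPM, with a log2 ratio of -0.99 (-1.27 to -0.72). This was a smaller difference than that of far-7, and the interval took in the far-4 ratio of -1.11. lbp-6 had -0.64, and lbp-2, the most abundant lbp gene, stood at 531 CPM without EA and 367 CPM with it (log2 ratio -0.53).

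None of the other lipid lists had a member past 2-fold at 5 CPM or more, in either direction. Over all genes at that minimum 1.52% were at least 2-fold lower and 0.481% at least 2-fold higher. With 1 to 10 assessed genes, a list is too short to set a count of 0 apart from these shares. The 7 yolk genes, which encode the large lipid-carrying vitellogenins and their receptor RME-2, all had log2 ratios above 0, with a median of 0.25. All 7 had intervals above 0, against 35.2% of all genes at 5 CPM or more. Their transcripts are long, with a median of 4934 nucleotides. Genes of 3000 nucleotides or more had a median log2 ratio of 0.05. With the length trend removed the yolk median was 0.22. Among acyl-CoA binding protein genes, acbp-1 had -0.90, but the median of the 4 assessed genes was -0.05. Of 7 lipocalin-related genes, for another family of lipid-binding proteins, lpr-2 alone reached 5 CPM and had -0.60. Below that minimum, lpr-7 was more than 2-fold lower, with 30 counts without EA and 12 with it (log2 ratio -1.24, -2.37 to -0.26). Lists for lipid transfer and sterol transport, carotenoid cleavage and fatty acid uptake, fatty acid desaturases and elongases had medians from -0.11 to 0.07. The median of the elongase genes turned from -0.11 to 0.20 at a minimum of 1 CPM or none, and those of the acyl-CoA binding, lipid transfer, carotenoid and regulator lists changed sign with the length trend removed. The largest difference in these lists at 5 CPM or more was that of fat-6, a stearoyl-CoA desaturase gene, at 279 CPM without EA and 142 CPM with it. This is a log2 ratio of -0.98 (-1.02 to -0.93), just short of 2-fold and on far more counts than far-7 or far-4 had. Also in these lists, acs-22, a fatty acid transport protein homologue, had 0.68, scav-6, a scavenger receptor gene, had -0.81, and elo-9, an elongase gene, had -0.65. The 10 regulators of lipid genes had a median of 0.03, with nhr-49, a nuclear receptor of fat metabolism, at -0.02 and the intestinal factor gene elt-2 at 0.42.

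**Figure D5:**
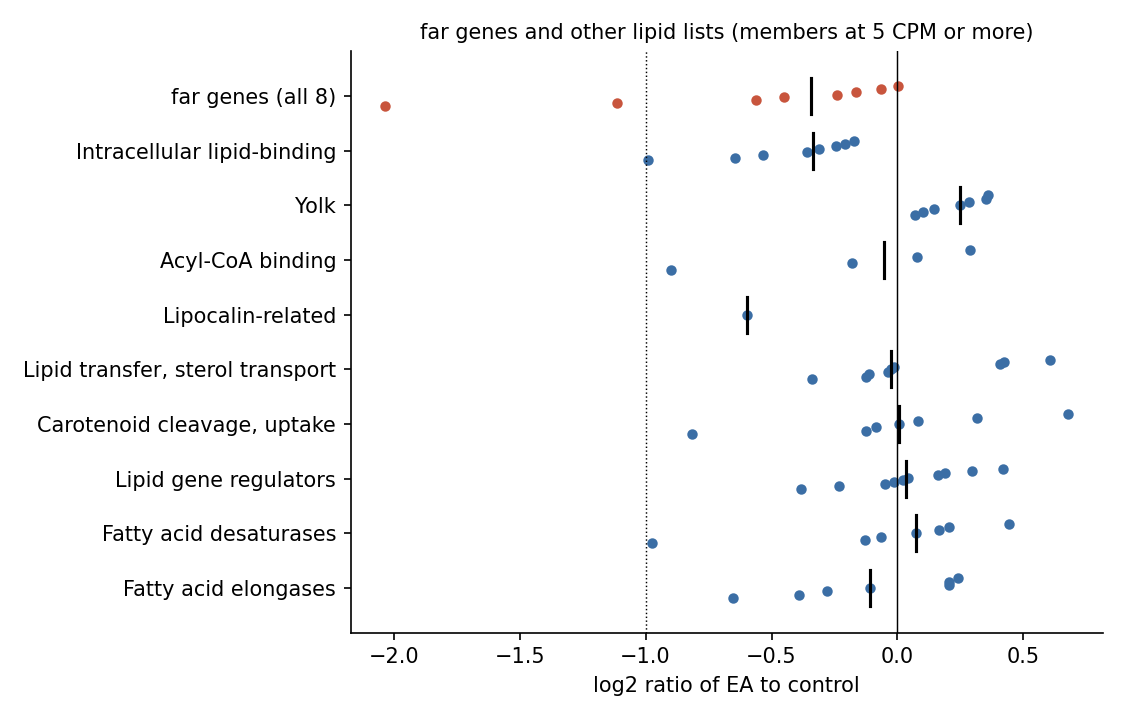
Log2 ratio of EA to control for the 8 far genes (red) and for members of 9 other lipid gene lists at 5 CPM or more (blue), with the median of each list as a black bar. The solid line marks 0 and the dotted line a 2-fold lower level, past which far-7 and far-4 lie. far-4 is drawn although it is below 5 CPM, where members of the other lists are not, and the yolk genes all lie above 0.

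Markers of the main tissues of a whole worm were present in both libraries, and some lists differed in the same comparison as the far genes. Over all genes at 5 CPM or more, intervals lay wholly below 0 in 33.1% and wholly above 0 in 35.2%. In the same set 0.481% were at least 2-fold higher. Intestine, epidermis and body wall muscle lists had median log2 ratios of 0.02, 0.08 and 0.00. These rest on 8, 4 and 10 of the 10 markers listed for each, those at 5 CPM or more. Pharynx markers had intervals below 0 in 7 of 7 assessed genes, with summed levels of 528 CPM without EA and 427 CPM with it, and phat-1 and phat-5, with 3 and 8 counts in the control, were at 0 with EA. Neuron markers had intervals below 0 in 6 of 10, with sums of 1215 and 1056 CPM. The 3 coelomocyte markers summed to 14.9 and 6.67 CPM, with intervals below 0 for cup-4 and unc-122 but not for lgc-26, and with cup-4 at 8.06 and 3.13 CPM. Germline and oocyte lists had intervals above 0 in 10 of 10 and 9 of 10 genes, with sums of 1170 and 1384 CPM for germline and of 3519 and 4286 CPM for oocyte genes. Sperm markers had intervals above 0 in 9 of 10 genes, a level at least 2-fold higher with EA in 7 of 10 and a median log2 ratio of 1.11. Some met the 5 CPM minimum of the mean only through their EA level, so these counts are not independent of the difference. Among these were ssq-3, at 2.85 and 7.17 CPM, and gsp-3, at 3.63 and 8.37 CPM. The sperm markers summed to 106 and 169 CPM. The part of these differences in the far ratios was not tested.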

How the data were processed

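The table as deposited holds, for each library, raw counts and the FPKM values that the authors computed. They also deposited their log2 ratio, FDR and call for each gene. Libraries were prepared with a NEBNext Ultra kit, and the reference was WBcel235, per the labels' protocols. The authors used edgeR (version not stated), per the submitters' processing notes. Aligner and counter were not given in the sources used here.

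Scaling used trimmed mean of M values (TMM) factors of 0.988 (control) and 1.01 (EA) from edgeR 4.0.16. A ratio has 0.5 added to each count. Ratio intervals are exact conditional binomial (Clopper-Pearson), and those between far genes are normal approximations on the log scale. The far counts and median hold all 8 genes without a minimum. Transcript length is the longest in Ensembl WBcel235 annotation, known for 19973 of 21163 rows, and the trend is a lowess with a span of 0.3 (statsmodels). Alternatives were other scalings (DESeq2 1.42.0 size factors among them), added counts, minimums and length windows. Steps were tested on simulated data. The simulated counts held counting error only, so the spread between cultures was not covered.

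The far genes and lists were chosen with earlier results of these data known. Named genes are the far genes, their neighbours and, from each list, up to 4 with the largest absolute log2 ratios at 5 CPM or more; nhr-49, fat-1, cup-4, unc-122, lgc-26, lpr-7, C07G3.10 and the pharynx genes at 0 were named after their values were seen. Protein and promoter sequences were not analysed here.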

Additional observations from a re-analysis of the deposited data

How the results depend on the processing

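The far-7 log2 ratio stayed past 2-fold under each of the other scalings, the added counts and the length correction. Of 64 member values under those alternatives, 50 stayed inside their counting interval. Among those that left it was far-2, at 0.036 with total counts, 0.068 with FPKM and 0.20 with the length trend removed. The signs that turned were those of far-6, to 0.0020 with FPKM, of far-1, to 0.0067 with the length trend removed, and of far-2, from 0.0013 to -0.011 with upper quartile scaling, inside its interval. The number of far genes at least 2-fold lower was 1 in place of 2 with the length trend removed or at a minimum of 5 CPM, where far-4 was left out, and 0 at a minimum of 10 CPM, which far-7 at 9.79 CPM did not reach. The family median was -0.28 with FPKM and -0.22 with the length trend removed. It was -0.24 at 5 CPM or more, -0.16 at 10 CPM or more, -0.24 without far-7, and -0.20 without far-4 and far-5. The 5 CPM minimum and the last of these were chosen after seeing the data. Without far-2, the family's share was 0.145% in the control and 0.128% with EA. With CPM held within 4-fold as well as length, the like-length median was -0.13 for far-1, -0.14 for far-2, -0.16 for far-4, -0.031 for far-6 and -0.060 for far-8. Without the 5 CPM minimum, also chosen after seeing the data, it was -0.12 for far-4, -0.16 for far-5 and -0.25 for far-7. Of 99 medians of the other lists, 88 kept their sign. FPKM moved the median of all genes by 0.07. No paired analysis was possible because each group has 1 library. Counting intervals do not cover the spread between cultures, and far-4 and far-7 with EA rest on 92 and 153 counts.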

Other observations

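A gene outside the named family, C07G3.10 on chromosome V, carries the same Pfam domain in the deposited annotation. It had 28 counts without EA and 12 with it, or 0.785 and 0.347 FPKM, well below far-4. Its log2 ratio was -1.14, with a counting interval from -2.28 to -0.15.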
